A study of Mus musculus with 14 samples.

Results

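The 48 genes described here are a listed set of mouse genes of cellular senescence, the p53 response and the cell cycle, chosen by name. Earlier results of these data were known when the list was drawn up. All 48 were found among the 49943 genes of the RefSeq annotation of GRCm38.p6 on the autosomes, X and Y, and all 48 are protein-coding. Their H3K9cr and H3K9ac were read from 14 lists of ChIP-seq peaks from mouse kidney. In ChIP-seq, an antibody against a histone mark enriches the chromatin that carries it, and peaks are the stretches where the sequenced DNA piles up. Kidneys came from wild-type (WT) and ACSS2-/- mice, each with a control group and a UUO group. UUO is unilateral ureteric obstruction, in which the left ureter is ligated, and it is a surgical model of kidney fibrosis. ACSS2 makes acyl-CoA donors for histone acylation, and by the methods of the study the ACSS2-/- mice carried a global deletion made with CRISPR/Cas9. The C57BL/6J and the ACSS2-/- mice were aged 6 to 8 weeks, and whole kidney tissue was used, so that no cell type was selected. The 8 libraries of H3K9cr were 2 per group, while the 6 of H3K9ac were 2 per group after UUO and a single library for either control group.

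Senescence is a lasting arrest of the cell cycle that follows DNA damage, stress or oncogene activity. The kinases Atm and Atr and their partners Chek1 and Chek2 pass the damage signal to p53, which induces Cdkn1a and other genes, while the Cdkn2a locus acts through the retinoblastoma protein and through Mdm2. Both routes hold back cyclin-dependent kinases, keep E2F factors silent and leave genes of DNA replication and mitosis unexpressed. In the injured kidney, tubular cells that stop in the cycle are known to secrete inflammatory and fibrotic factors. The study asked about senescence of tubular cells in relation to ACSS2 and H3K9cr, and this question frames the comparisons of operation and genotype at these genes.

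The measure was the covered length, the number of kilobases under peaks within 3 kb of either end of a gene. The windows held 8.11 to 12 kb per gene, and they overlapped where a gene was short. The RefSeq promoter table lists a start for 42 of the 48 genes, and the other 6 are Rb1, Ccnd1, Ccnd2, Ccne2, Ccna2 and Lmnb1. Ends of another gene lay within 3 kb of an end of 30 of the 48, and of another protein-coding gene in 21, so that a peak there can belong to the neighbour. Trp53, which encodes p53, shares its start region with Wrap53, and Atm shares its own with Npat.

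The number of peaks in a library was between 27530 and 45014 for H3K9cr and between 15988 and 32760 for H3K9ac, and read depth is unknown from the lists. On the Y chromosome, 8 of the 14 libraries had 2 to 14 peaks and 6 had none, so that H3K9cr replicates differed in this in WT control, WT UUO and ACSS2-/- UUO kidneys. The labels give no sex. In 4 libraries, the number in the names of the peaks differed from the replicate number of the label. The lists do not say what that number stands for. The labels also give the antibodies another catalogue number in each group, so that antibody and group cannot be told apart if these numbers are right. Near Acss2 itself, the covered length was 1.07 to 1.33 kb in the 4 WT and 0.799 to 2.72 kb in the 4 ACSS2-/- libraries of H3K9cr. Peaks near the ends of a gene do not show whether it was deleted, and the genotype labels were not checked in this way. Summed over 10 proximal tubule markers, H3K9cr covered 25.9 to 38.5 kb in the 4 control libraries and 2.38 to 8.83 kb in the 4 UUO libraries. Over 10 leukocyte markers the ranges were 1.69 to 3.74 kb and 9.5 to 28.9 kb.

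Nearly all of these genes carried both marks in most kidneys. A peak was present in every one of the 14 libraries for 38 of the 48 genes (79.2%), against 27.1% of all genes and 48.9% of all protein-coding genes. The 10 exceptions were Cdkn2a and Cdkn2b, E2f1, E2f2 and Ccne1, the mitotic and replication genes Cdk1, Mki67 and Top2a, and Hmga2 and Igfbp3. None was without a peak in all 14 libraries, and 45 to 48 had a peak in any 1 library. The mean covered length over the 48 genes was 1.97 to 2.84 kb per library for H3K9cr, against 1.02 to 1.52 kb over all protein-coding genes. For H3K9ac it was 1.73 to 3.29 kb, against 0.827 to 1.75 kb. Between 67.0% and 93.0% of the H3K9ac bases near these genes lay under H3K9cr in a pair of libraries of the same group, with a median of 77.6%, close to the median of 79.5% over all protein-coding genes.

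The marks lay at the starts of the genes. For 33 members with a listed start and separate windows, 31 had more H3K9cr at the start than at the end, with medians of 1.85 kb and 0 kb. The same number held for H3K9ac, with medians of 1.73 kb and 0 kb. No library had cover at the end of 21 of them. The exceptions for H3K9cr were Cdk2, which lies near Pmel and Rab5b, and Ccnb1, which encodes cyclin B1 and lies near Cenph. Peaks of H3K9cr at the 48 genes were longer at the median than all peaks of a library. Their median length in a library was between 1248 and 1926.5 bp for H3K9cr, against 812 to 1017 bp for all peaks. All peaks include those far from any gene, and peaks near other genes were not compared.

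**Figure D1:**
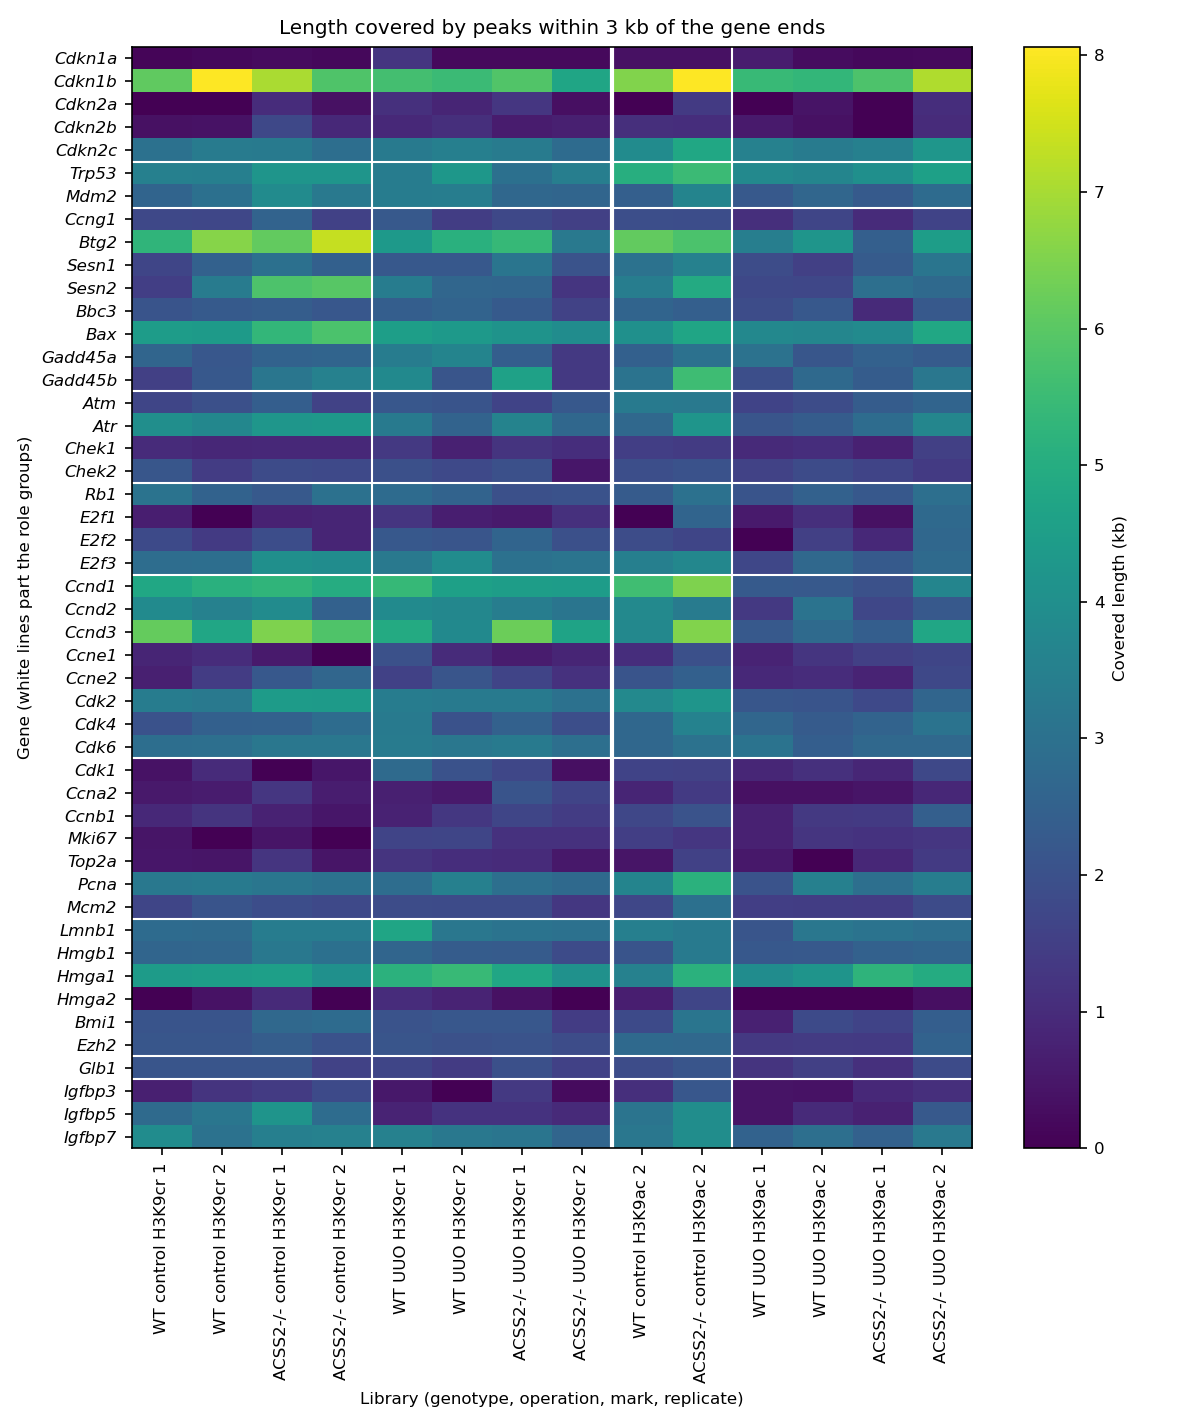
Covered length in kb within 3 kb of the gene ends for the 48 genes (rows, grouped by role) in the 14 libraries (columns, grouped by mark and operation), by colour from 0 to 8.06 kb. Cdkn1b stands highest under both marks, and Cdkn1a, Cdkn2a, Hmga2 and most S, G2 and M phase genes stay near the bottom of the scale.

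The cyclin-dependent kinase inhibitors spanned the whole range. Cdkn1b, a brake on the entry into S phase, had the largest mean H3K9cr of the 48 genes, 6.09 kb (n = 8 libraries). Its H3K9cr was 6.10 and 8.04 kb in WT control, 7.03 and 5.84 kb in ACSS2-/- control, 5.65 and 5.48 kb in WT UUO and 5.86 and 4.74 kb in ACSS2-/- UUO. Its H3K9ac was 6.53 kb in WT control, 8.06 kb in ACSS2-/- control, 5.44 and 5.33 kb in WT UUO and 5.80 and 7.10 kb in ACSS2-/- UUO. The operations overlapped under both marks. Cdkn2c, an inhibitor of Cdk4 and Cdk6, had a mean H3K9cr of 3.19 kb.

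Cdkn1a, the inhibitor that p53 induces, had the smallest mean H3K9cr of the 48, 0.323 kb within 3 kb of its outer ends, a window that missed most of its peak. The gene, chr17:29090979-29100722 on the plus strand, has 2 listed starts 2790 bp apart, and the 3 kb window was set around the outer one. Both starts are printed because they carried the marks so differently, 250 bases before to 50 after the start, from RefSeq (GRCm38.p6). The first lies at chr17:29090729-29091028 and the second at chr17:29093519-29093818. Capitals mark matches to the p53 half-site, found at -73 and -51 bases from the outer start and not at the inner one, and to the GC box GGGCGG, found at -104 and -46 bases from the inner start and not at the outer one.
Cdkn1a outer start: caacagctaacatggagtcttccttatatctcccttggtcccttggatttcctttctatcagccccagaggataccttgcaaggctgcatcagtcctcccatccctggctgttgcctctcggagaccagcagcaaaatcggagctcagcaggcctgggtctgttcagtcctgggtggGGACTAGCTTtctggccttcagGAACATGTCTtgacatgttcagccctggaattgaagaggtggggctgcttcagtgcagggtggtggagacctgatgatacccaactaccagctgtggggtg
Cdkn1a inner start: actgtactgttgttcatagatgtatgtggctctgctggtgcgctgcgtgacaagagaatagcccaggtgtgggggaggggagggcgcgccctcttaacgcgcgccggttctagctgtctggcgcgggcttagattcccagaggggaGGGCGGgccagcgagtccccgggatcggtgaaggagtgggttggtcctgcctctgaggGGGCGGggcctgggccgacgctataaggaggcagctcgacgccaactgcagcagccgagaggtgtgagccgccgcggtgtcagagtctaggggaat

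A peak that began at or close to the inner start of Cdkn1a was present in every library. From 2.5 to 5.5 kb past the outer start, H3K9cr covered 1.65 and 1.79 kb in WT control, 2.02 and 2.20 kb in ACSS2-/- control, 2.38 and 2.26 kb in WT UUO and 2.04 and 2.20 kb in ACSS2-/- UUO. H3K9ac covered 1.85 kb in WT control, 2.34 kb in ACSS2-/- control, 1.91 and 2.30 kb in WT UUO and 2.23 and 2.38 kb in ACSS2-/- UUO. The operations overlapped under both marks. The outer start lay under a peak in 1 library of the 14, WT UUO H3K9cr replicate 1, which held a peak of 775 bp there. Within 3 kb of the outer start, H3K9cr was therefore 1.24 kb in that library, 0.210 kb in the other WT UUO library, 0.208 and 0.214 kb in ACSS2-/- UUO, 0.111 and 0.185 kb in WT control, and 0.234 and 0.179 kb in ACSS2-/- control. H3K9ac was 0.369 kb in WT control, 0.348 kb in ACSS2-/- control, 0.617 and 0.257 kb in WT UUO and 0.160 and 0.198 kb in ACSS2-/- UUO. The difference of H3K9cr between UUO and control was 0.291 ± 0.220 kb (SE), with an adjusted p of 0.42 from limma with Benjamini-Hochberg adjustment.

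Cdkn2a, chr4:89274473-89294619 on the minus strand, encodes an inhibitor of Cdk4 and Cdk6 and, from its outer start, an antagonist of Mdm2. Its peaks all lay at or just upstream of the outer start, and the inner listed start, 12427 bp further in, was under no peak in any library. No peak of H3K9cr was present in either WT control library, while ACSS2-/- control had 1.03 and 0.36 kb. After UUO, H3K9cr was 1.11 and 0.819 kb in WT and 1.26 and 0.337 kb in ACSS2-/-. H3K9ac was listed at 0 in WT control, in WT UUO replicate 1 and in ACSS2-/- UUO replicate 1, and was 1.38 kb in ACSS2-/- control, 0.433 kb in WT UUO replicate 2 and 1.07 kb in ACSS2-/- UUO replicate 2. The H3K9cr of the UUO libraries overlapped that of the control libraries through ACSS2-/- control, and the difference was 0.534 ± 0.246 kb (SE; adjusted p = 0.20, limma). Cdkn2b, its neighbour and relative, had H3K9cr in all 8 libraries, from 0.362 to 1.74 kb.

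**Figure D2:**
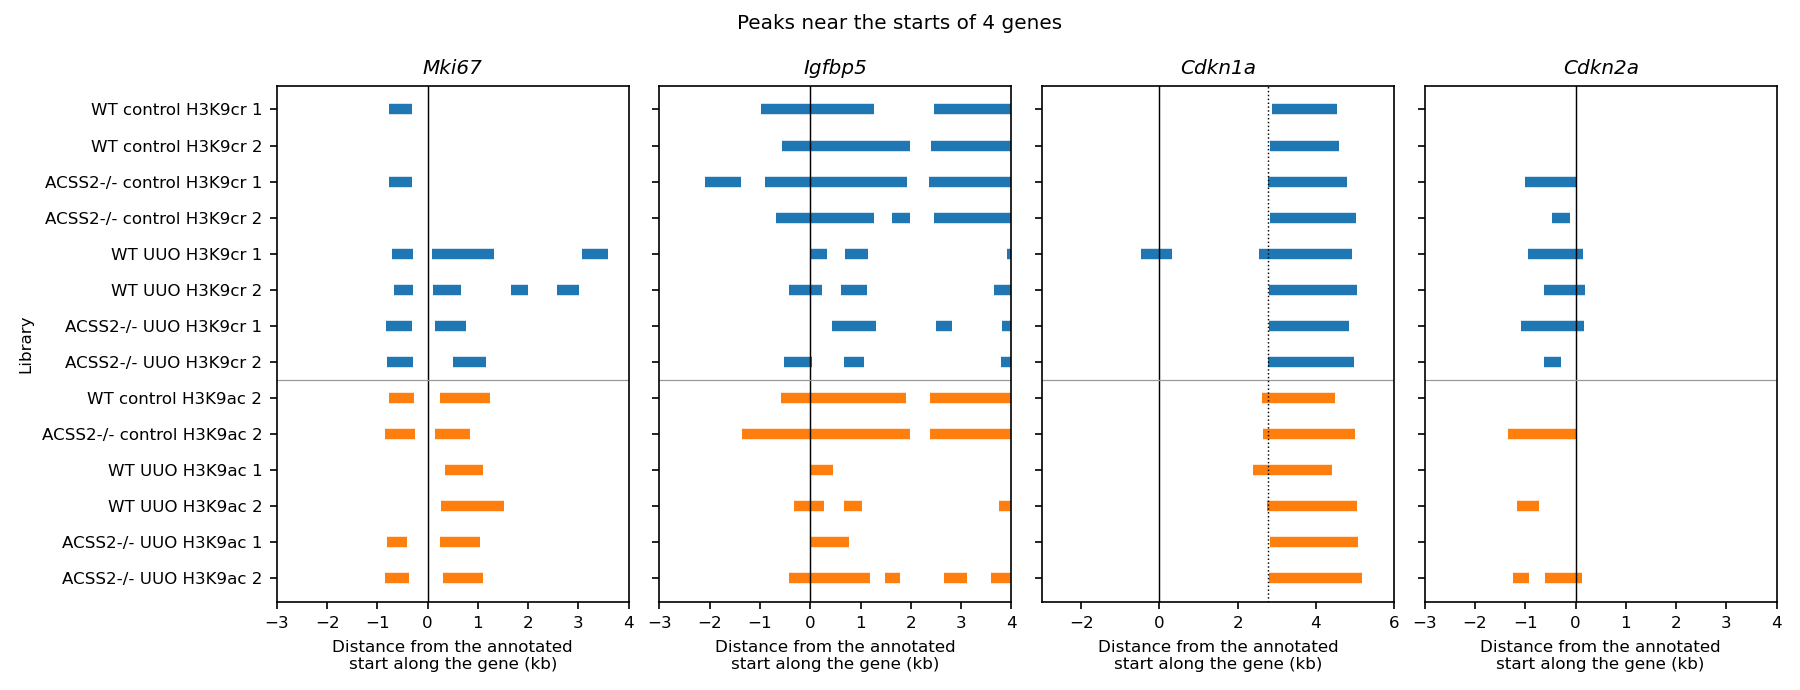
Peaks (bars) of the 14 libraries around the annotated starts of Mki67, Igfbp5, Cdkn1a and Cdkn2a, by distance from the outer start along the gene in kb, with H3K9cr in blue and H3K9ac in orange. The dotted line marks the inner listed start of Cdkn1a, near which every library has a peak, while the peak inside Mki67 is absent from the 4 control libraries of H3K9cr and present in all 6 of H3K9ac.

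p53 and its regulator had similar lengths of H3K9cr and differed more in H3K9ac, with means of 4.44 kb at Trp53 and 2.68 kb at Mdm2. Trp53 had a mean H3K9cr of 3.69 kb and Mdm2, the ligase that removes p53, had 3.11 kb. Among 8 p53 and stress targets, mean H3K9cr ran from 1.83 kb at Ccng1 to 5.44 kb at Btg2, an anti-proliferative gene, and all 8 had a peak of each mark in every library. The 4 DNA damage kinases ran from 1.01 kb at Chek1 to 3.55 kb at Atr. Rb1 and the E2F genes ran from 0.736 kb at E2f1 to 3.37 kb at E2f3. Among 8 cyclins and kinases of G1, the lowest was Ccne1, encoding cyclin E1, with 0.863 kb, and the highest Ccnd3, encoding cyclin D3, with 5.37 kb. The 7 S, G2 and M phase genes ran from 0.805 kb at Top2a, the topoisomerase of dividing cells, to 3.10 kb at Pcna, the replication clamp. Of 6 genes of chromatin and nuclear structure, Hmga2 had 0.441 kb and its relative Hmga1 4.62 kb. Glb1, whose lysosomal enzyme is the usual stain for senescent cells, had 1.40 to 2.14 kb of H3K9cr in the 8 libraries and 1.12 to 2.12 kb of H3K9ac in 6. The IGF binding proteins ran from 0.898 kb at Igfbp3 to 3.32 kb at Igfbp7.

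The first comparison was of UUO with control kidneys. Of the 48 genes, 2 changed in H3K9cr (4.17%), against 11.8% of all genes tested, and most of the list did not pass the test. Mki67 was the 1 that rose, where 2.37% of all genes did, and Igfbp5 the 1 that fell, where 9.44% did. An unadjusted p under 0.05 was reached by 14 of the 48 (29.2%), close to 29.4% of all genes. The median difference over the 48 genes was -0.077 kb, and over all 21116 genes tested it was -0.180 kb. The test was limma on covered length with Benjamini-Hochberg adjustment over all genes, both genotypes together, at an adjusted p under 0.05. The labels do not say whether libraries of a group came from separate animals, so that p-values measure the spread between these libraries. In whole kidney, fewer cells of a type and less of a mark per cell cannot be told apart.

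Mki67 encodes Ki-67, the nuclear protein used to count dividing cells, and lies at chr7:135689784-135716450 on the minus strand. Its H3K9cr was 0.456 and 0 kb in WT control, 0.462 and 0 kb in ACSS2-/- control, 1.66 and 1.70 kb in WT UUO and 1.15 and 1.16 kb in ACSS2-/- UUO. Every UUO library was above every control library. The mean was 1.42 kb in UUO against 0.230 kb in control, and the rise of 1.19 ± 0.163 kb (SE, 4 against 4 libraries) had an adjusted p of 0.0080. Control kidneys had no H3K9cr peak just inside the gene. In the first 1.5 kb after the start, a stretch chosen after the peaks were seen, H3K9cr was 0 kb in all 4 control libraries, 1.24 and 0.543 kb in WT UUO and 0.628 and 0.657 kb in ACSS2-/- UUO. A short peak upstream of the start was in 2 of the control and in all 4 UUO libraries. H3K9ac lay in that inner stretch in every library, with 0.996 kb in WT control, 0.693 kb in ACSS2-/- control, 0.751 and 1.24 kb in WT UUO and 0.795 and 0.794 kb in ACSS2-/- UUO. Over the whole window, H3K9ac was 1.5 kb in WT control, 1.28 kb in ACSS2-/- control, 0.751 and 1.25 kb in WT UUO and 1.18 and 1.27 kb in ACSS2-/- UUO, so both control libraries were above all 4 UUO libraries. That difference was -0.276 ± 0.210 kb (SE; adjusted p = 0.35, limma). The H3K9cr of Mki67 passed the test in 15 of 20 other settings. In 4 more it was positive without passing (1 kb windows, a log2 scale, numbers of peaks and no filter on low cover), with adjusted p up to 0.24. With only the longest peaks of each library it was not tested, since 1 of the 8 libraries had cover there, and the 6 members called in that setting do not include it.

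The promoter of Mki67 is printed beside that of Cdk1, the kinase that drives mitosis, because both hold a pair of short motifs of genes expressed in G2 and M phase. These are the CCAAT box and the CHR element TTTGAA, each searched on both strands, and capitals mark them. The Mki67 promoter lies at chr7:135716330-135716629 and that of Cdk1 at chr10:69352863-69353162, both on the minus strand, and both sequences are from RefSeq (GRCm38.p6).
Mki67: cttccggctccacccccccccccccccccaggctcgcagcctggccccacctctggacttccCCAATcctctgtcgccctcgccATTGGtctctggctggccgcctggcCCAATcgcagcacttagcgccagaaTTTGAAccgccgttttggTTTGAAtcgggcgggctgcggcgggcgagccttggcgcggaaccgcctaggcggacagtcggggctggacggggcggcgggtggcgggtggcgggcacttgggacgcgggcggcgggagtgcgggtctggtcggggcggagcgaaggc
Cdk1: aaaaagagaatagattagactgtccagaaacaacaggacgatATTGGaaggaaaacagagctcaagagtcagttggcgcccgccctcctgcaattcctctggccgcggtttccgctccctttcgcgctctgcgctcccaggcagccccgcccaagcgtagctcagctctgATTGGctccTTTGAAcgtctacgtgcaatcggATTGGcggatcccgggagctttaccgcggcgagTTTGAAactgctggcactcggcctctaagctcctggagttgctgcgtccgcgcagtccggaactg

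Of the 6 S, G2 and M phase genes with a listed start, 4 held both motifs (Cdk1, Mcm2, Mki67 and Top2a). E2f2 and E2f3 held both as well. Over the 53 listed promoters of all members, 6 (11.3%) held both, against 6.95% of all 32851 promoters. In Mki67 the 3 CCAAT boxes began at -188, -166 and -141 bases from the start and the CHR elements at -116 and -98 bases. Cdk1 had H3K9cr of 0.379 and 0.991 kb in WT control, 0 and 0.491 kb in ACSS2-/- control, 2.78 and 2.05 kb in WT UUO and 1.70 and 0.327 kb in ACSS2-/- UUO. The lowest UUO library, ACSS2-/- replicate 2, was within the range of the controls. The difference, 1.25 ± 0.351 kb (SE), had an adjusted p of 0.067. The median difference over the 7 S, G2 and M phase genes was 0.457 kb, with 4 at an unadjusted p under 0.05 and 1 past the test, where 29.4% and 11.8% of all genes were. In a longer list of 38 other cell cycle genes, 36 were tested, 0 rose and 2 fell, where 2.37% and 9.44% of all genes did. Of the 36, 6 had an unadjusted p under 0.05, and their median difference was 0.0079 kb. The 2 were Birc5, encoding survivin, which was 1.61 kb in UUO and 2.75 kb in control (adjusted p = 0.038), and Cdc25a, a phosphatase that activates Cdk2, which was 1.77 kb and 2.90 kb (adjusted p = 0.030).

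Igfbp5 encodes a secreted protein that binds insulin-like growth factors and lies at chr1:72858065-72874865 on the minus strand. Its H3K9cr was 2.80 and 3.16 kb in WT control, 4.16 and 2.84 kb in ACSS2-/- control, 0.807 and 1.19 kb in WT UUO and 1.19 and 0.962 kb in ACSS2-/- UUO. Every UUO library was below every control library. The mean was 1.04 kb in UUO against 3.24 kb in control, and the fall, -2.20 ± 0.309 kb (SE, 4 against 4 libraries), had an adjusted p of 0.0086. It passed the test in the 19 other settings that scored covered length, with adjusted p from 0.0042 to 0.035. Numbers of peaks did not vary within any group, with 2 in each WT control, WT UUO and ACSS2-/- UUO library and 3 in each ACSS2-/- control library, so that WT kidneys showed no fall in number and no test of it is used. Deeper in the gene, partly beyond the window, UUO libraries were lower as well. From 2.4 to 6 kb past the start, a stretch chosen after the peaks were seen, H3K9cr covered 2.37 to 3.57 kb in the 4 control libraries and 0.530 to 1.53 kb in the 4 UUO libraries. H3K9ac of the whole window was 3.09 kb in WT control, 3.96 kb in ACSS2-/- control, 0.426 and 0.953 kb in WT UUO and 0.755 and 2.24 kb in ACSS2-/- UUO. Here too all UUO libraries were below both controls, and the difference of -2.43 ± 0.559 kb (SE) had an adjusted p of 0.076. The promoter at chr1:72874816-72875115 on the minus strand, from RefSeq (GRCm38.p6), is printed because it lies among the peaks that fell. It has no capitals, as none of the motifs searched here was found in it on either strand.
Igfbp5: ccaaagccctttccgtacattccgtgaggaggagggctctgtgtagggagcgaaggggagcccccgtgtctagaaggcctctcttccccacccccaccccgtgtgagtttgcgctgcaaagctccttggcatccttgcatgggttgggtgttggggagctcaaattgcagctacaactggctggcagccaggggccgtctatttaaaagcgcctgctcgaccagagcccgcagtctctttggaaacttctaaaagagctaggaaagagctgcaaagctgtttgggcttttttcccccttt

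**Figure D3:**
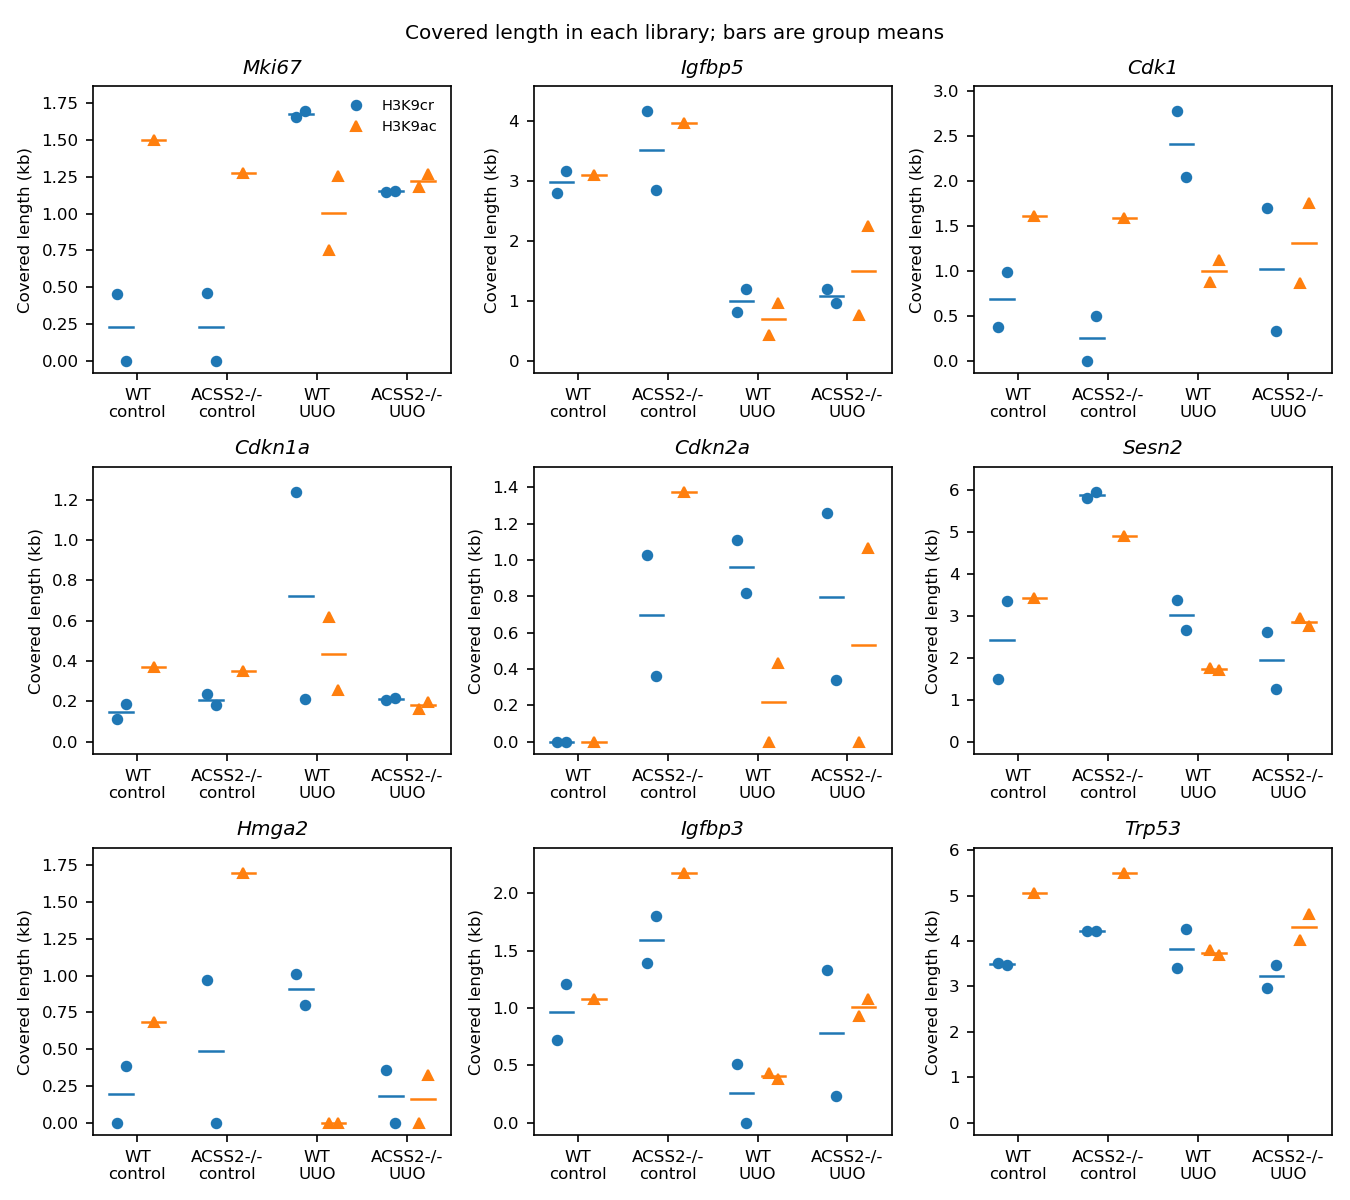
Covered length in kb of 9 genes in each library, by group, with H3K9cr as blue circles and H3K9ac as orange triangles and horizontal bars for group means (n = 2 libraries, or 1 for H3K9ac in control). For Mki67 the H3K9cr of all 4 UUO libraries lies above all 4 controls, and for Igfbp5 below.

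Other members came near the threshold, and they are named for their small p after their values were seen. Atr, the kinase of stalled replication forks, had H3K9cr of 4.0 and 3.73 kb in WT control, 4.25 and 4.30 kb in ACSS2-/- control, 3.28 and 2.55 kb in WT UUO and 3.60 and 2.68 kb in ACSS2-/- UUO. All UUO libraries were lower, and the difference of -1.04 ± 0.299 kb (SE) had an adjusted p of 0.071. Sesn2, a stress-induced inhibitor of growth signalling, had an adjusted p of 0.077, Bax, which opens the mitochondrial membrane in apoptosis, 0.096, and Hmgb1, a chromatin protein that damaged cells release, 0.10. Counted without a model, 2 genes were higher in every UUO than in every control library, E2f2 and Mki67 (4.17%), against 2.36% of all genes. Another 2, Igfbp5 and Atr, were lower in every UUO library (4.17%), against 13.7% of all genes.

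Scaling moved this comparison. After quantile normalization the median over all genes shifted from -0.180 to 0.047 kb, the median over the 48 genes turned from -0.077 to 0.315 kb, with 37 positive and 11 negative in place of 20 and 28, and the share of changed genes that rose went from 20.1% to 45.7%. The members that passed were then 5 that rose (Ccna2, Cdk1, E2f2, Hmga1 and Mki67), against 5.2% of all genes, and Igfbp5, which fell, against 6.18%. Trp53 itself had H3K9cr of 3.51 and 3.48 kb in WT control, 4.22 and 4.21 kb in ACSS2-/- control, 3.40 and 4.25 kb in WT UUO and 2.97 and 3.46 kb in ACSS2-/- UUO. The operations overlapped, and the difference was -0.332 ± 0.272 kb (SE; adjusted p = 0.46, limma).

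Genes of the same pathways that are not members were counted from fixed lists. Of 24 other p53 targets 22 were tested, and 0 rose or fell in H3K9cr with UUO, where 11.8% of all genes did. Of 13 other DNA damage response genes 12 were tested and 0 changed, and of 12 genes of the secretory phenotype 10 were tested and 0 changed. An unadjusted p under 0.05 was reached by 2, 1 and 1 of them, where 29.4% of all genes reached it. Markers of other cells moved in the same comparison. Among 10 proximal tubule markers 8 fell, such as Slc34a1 (0.828 kb in UUO and 4.21 kb in control), where 9.44% of all genes did. Among 9 tested leukocyte markers 6 rose, such as Tyrobp (3.62 kb and 0 kb), where 2.37% of all genes did. Of 7 tested injured tubule markers 2 rose (Lcn2 and Vcam1), of 7 of stroma 1 rose (Col1a1), and of 6 of endothelium 0 changed. Of 8 leukocyte markers at 0 in all 4 control libraries, Itgam was the 1 also at 0 in all UUO libraries. Injured tubule markers covered 10.2 to 12.3 kb in control and 10.3 to 20.6 kb in UUO, stroma 0.717 to 3.86 kb and 2.15 to 9.06 kb, and endothelium 5.43 to 14.2 kb and 4.15 to 8.03 kb. Their part in the changes of Mki67 and Igfbp5 was not tested.

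**Figure D4:**
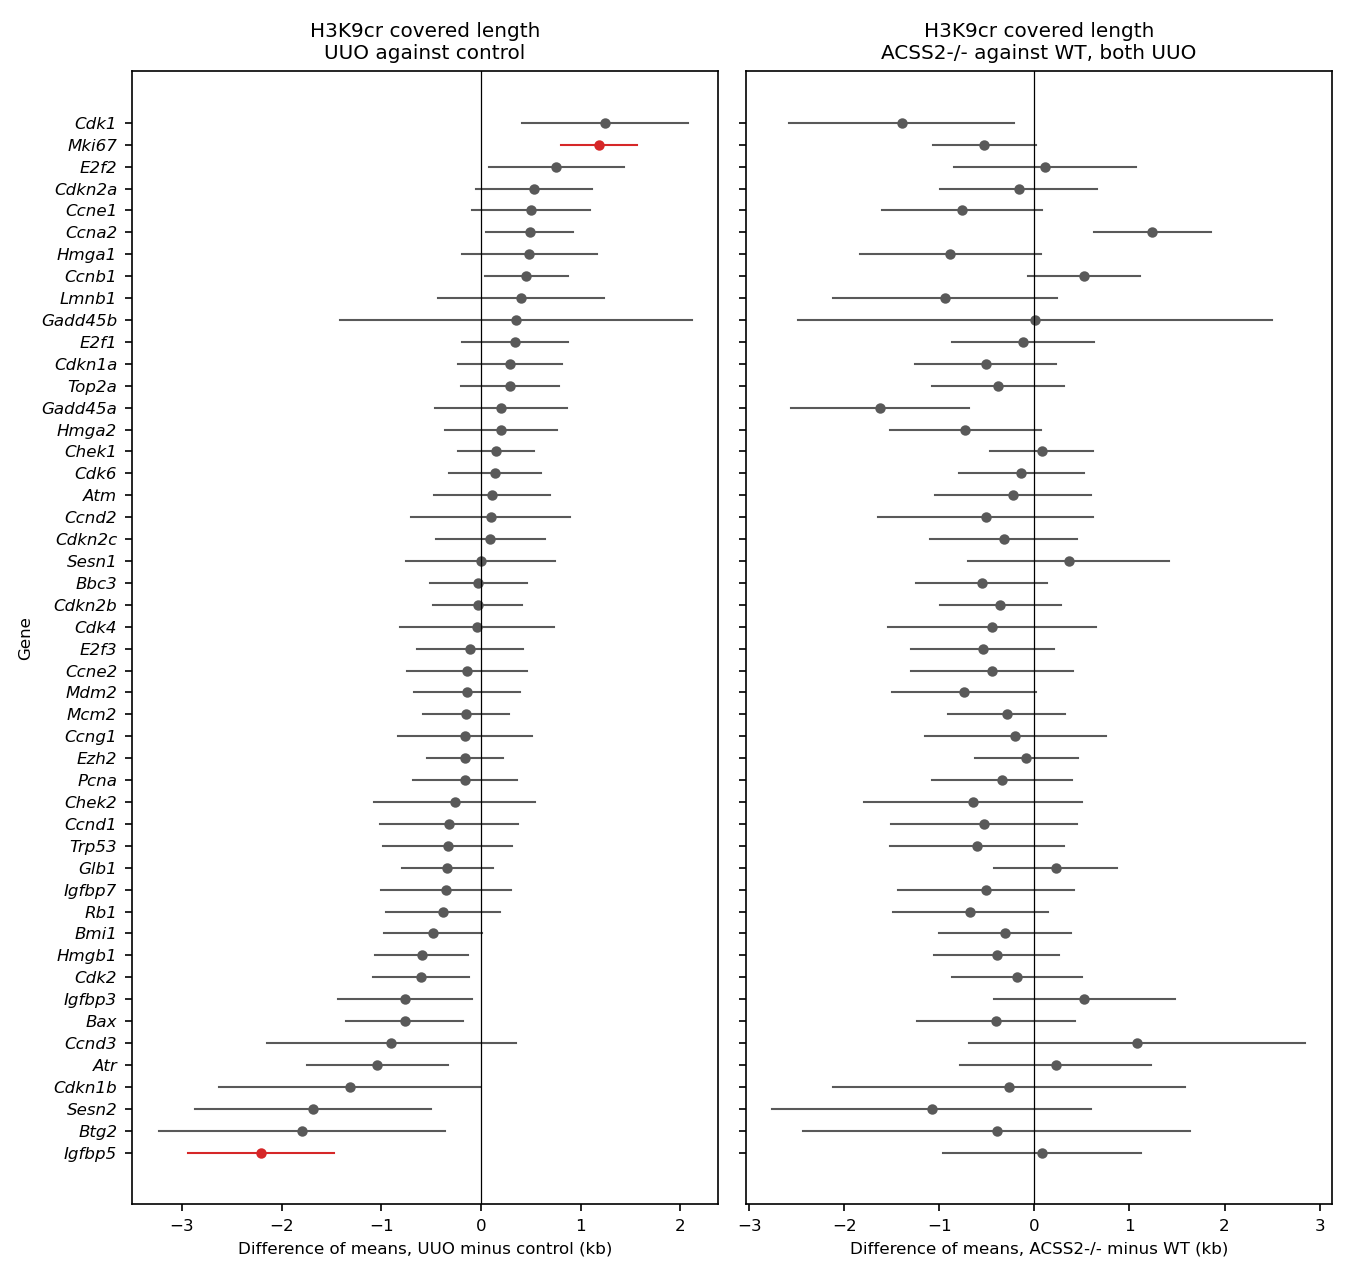
Difference of mean H3K9cr covered length in kb (points) with 95% intervals from limma (lines) for the 48 genes, UUO minus control on the left and ACSS2-/- minus WT within UUO on the right, in the same order of genes. Red marks an adjusted p under 0.05, which Mki67 and Igfbp5 reach on the left and no gene on the right.

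The second comparison was of the genotypes, the question of what the loss of ACSS2 does to H3K9cr at these genes. Over both operations, 0 of the 48 passed limma, against 0.0142% of all genes, and 5 (10.4%) had an unadjusted p under 0.05, against 8.57% of all genes. No member was higher in every ACSS2-/- than in every WT library of H3K9cr, where 0.933% of all genes were, and none was lower in every one, where 0.407% were. Within UUO, 0 of the 48 passed, against 0.0616% of all genes, and 3 (6.25%) had an unadjusted p under 0.05, against 7.31%. The difference was negative in 37 of the 48, with a median of -0.370 kb, and the median over all genes was -0.108 kb. After quantile normalization these were 32 of 48, -0.156 kb and 0.016 kb.

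The 3 genes are named after their values were seen. Ccna2, encoding cyclin A2, had H3K9cr of 0.709 and 0.565 kb in WT UUO and 2.09 and 1.66 kb in ACSS2-/- UUO, a difference of 1.24 ± 0.259 kb (SE; adjusted p = 0.25, limma). Gadd45a, a p53 target in growth arrest and DNA repair, had 3.37 and 3.64 kb in WT UUO and 2.42 and 1.35 kb in ACSS2-/- UUO, a difference of -1.62 ± 0.394 kb (adjusted p = 0.34). Cdk1 differed by -1.40 ± 0.497 kb (adjusted p = 0.58). For Trp53 the difference was -0.607 ± 0.385 kb, for Cdkn1a -0.514 ± 0.311 kb, which rests on the outer peak of 1 WT library, and for Cdkn2a -0.165 ± 0.349 kb. For Mki67 it was -0.526 ± 0.230 kb (95% interval -1.07 to 0.020 kb) and for Igfbp5 0.080 ± 0.437 kb, and none of these 5 passed the test.

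Whether UUO acted differently in the genotypes was tested as an interaction. Again 0 of the 48 passed, against 0.0189% of all genes, and 11 (22.9%) had an unadjusted p under 0.05, against 13.5% of all genes. The interaction was negative in 41 of the 48, and its median was -0.577 kb, with -0.388 kb over all genes. After quantile normalization it was negative in 25 of the 48, with medians of -0.020 kb and 0.061 kb. Sesn2 had the smallest p, with H3K9cr of 1.51 and 3.36 kb in WT control, 5.82 and 5.96 kb in ACSS2-/- control, 3.39 and 2.66 kb in WT UUO and 2.63 and 1.26 kb in ACSS2-/- UUO. Both ACSS2-/- control libraries stood above all the others. UUO minus control was 0.591 kb in WT and -3.95 kb in ACSS2-/-, and the difference of -4.54 ± 0.997 kb (SE) had an adjusted p of 0.19. The change of Mki67 was 1.45 kb in WT and 0.921 kb in ACSS2-/- (adjusted p = 0.52), and that of Igfbp5 was -1.98 kb and -2.43 kb (adjusted p = 0.79).

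In H3K9ac, 3 of the 48 genes fell with UUO (6.25%) and 0 rose, while 14.1% of all genes changed and 14% fell. Sesn2 had H3K9ac of 3.42 kb in WT control, 4.92 kb in ACSS2-/- control, 1.75 and 1.71 kb in WT UUO and 2.94 and 2.75 kb in ACSS2-/- UUO. The difference was -1.88 ± 0.186 kb (SE; adjusted p = 0.026, limma). Hmga2, a chromatin architectural protein of growing cells, had 0.682 kb in WT control, 1.70 kb in ACSS2-/- control, 0 kb in both WT UUO libraries and 0 and 0.326 kb in ACSS2-/- UUO (-1.11 ± 0.121 kb, adjusted p = 0.030). Both of these had all UUO libraries below both controls. Igfbp3, a binding protein of insulin-like growth factors, had 1.08 kb in WT control, 2.18 kb in ACSS2-/- control, 0.430 and 0.382 kb in WT UUO and 0.933 and 1.08 kb in ACSS2-/- UUO (-0.921 ± 0.112 kb, adjusted p = 0.035). Its WT control library was at the level of the highest UUO library, so that the operations touched.

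These calls rest on single libraries, since each control group has 1. In the main fits with H3K9ac, the SE and p-values therefore hold no spread between control libraries of that mark. Leaving out a control library loses its whole group, and the fit then added an effect of operation to one of genotype. No member passed without the ACSS2-/- control library, or without either WT UUO library, while 6 passed without ACSS2-/- UUO replicate 1 and 9 without replicate 2. The difference was negative in 47 of the 48 genes, with a median of -0.639 kb and -0.706 kb over all genes. After quantile normalization it was positive in 31 of the 48 and 0 passed, with medians of 0.178 kb and 0.090 kb. An unadjusted p under 0.05 was reached by 12 (25%), against 41.8% of all genes. Every UUO library was below both controls in 20 of the 48 (41.7%), against 48.6% of all genes, and above both in 0, against 0.4%. E2f1, the factor that switches on replication genes, had H3K9ac in all 4 UUO libraries (0.589 and 1.08 kb in WT, 0.376 and 2.77 kb in ACSS2-/-) and in 1 of the 2 controls, 2.61 kb in ACSS2-/- and 0 kb in WT. Its H3K9cr was 0.670 and 0 kb in WT control, 0.761 and 0.831 kb in ACSS2-/- control, 1.25 and 0.684 kb in WT UUO and 0.579 and 1.11 kb in ACSS2-/- UUO, so that the operations overlapped.

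Between the genotypes in UUO, 0 of the 48 passed in H3K9ac, as did 0.0% of all genes, and 3 had an unadjusted p under 0.05 (6.25%), against 5.39%. They were Sesn2, Igfbp3 and Hmga1, higher in ACSS2-/-, each with an adjusted p of 0.79. Over both operations, 5 of the 48 (10.4%) had more H3K9ac in every ACSS2-/- than in every WT library, Hmgb1, Ccne1, Atr, Top2a and Hmga1, against 4.46% of all genes. None had less, against 0.0438%. The number of peaks of the libraries moved with this, as the 3 ACSS2-/- libraries held 17271 to 32760 peaks and the 3 WT libraries 15988 to 25585, and its part in the result was not tested.

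The third comparison set the marks against each other over all groups. The study's text says that H3K9ac was profiled in samples also used for H3K9cr, and the fit took the libraries as independent. None of the calls below held when libraries of a group with the same replicate number were paired as a block (Trp53 adjusted p = 0.24, Cdkn2c 0.29, Atm 0.37), or with a block set by the numbers that peak names carry, a pairing chosen after seeing the data (0.21, 0.20 and 0.19, limma). H3K9cr was lower than H3K9ac at 3 of the 48 genes (6.25%) and higher at 0, where 18.7% of all genes differed and 8.14% were lower. An unadjusted p under 0.05 was reached by 9 of the 48 (18.8%), against 34.0% of all genes. Trp53, whose H3K9cr is given above, had H3K9ac of 5.06 kb in WT control, 5.50 kb in ACSS2-/- control, 3.80 and 3.68 kb in WT UUO and 4.03 and 4.58 kb in ACSS2-/- UUO. Both controls and ACSS2-/- UUO replicate 2 of H3K9ac stood above all 8 libraries of H3K9cr, and the other H3K9ac libraries lay within their range. The difference was -0.966 ± 0.210 kb (SE; adjusted p = 0.016, limma). Cdkn2c differed by -0.822 ± 0.196 kb (adjusted p = 0.022). Its H3K9cr was 3.0 and 3.34 kb in WT control, 3.31 and 2.92 kb in ACSS2-/- control, 3.31 and 3.49 kb in WT UUO and 3.34 and 2.81 kb in ACSS2-/- UUO. Its H3K9ac was 3.90 kb in WT control, 4.82 kb in ACSS2-/- control, 3.55 and 3.37 kb in WT UUO and 3.51 and 4.23 kb in ACSS2-/- UUO. WT UUO replicate 2 was the only H3K9ac library within the range of H3K9cr.

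Atm, the kinase of double-strand breaks, differed by -0.734 ± 0.184 kb (adjusted p = 0.027). Its H3K9cr was 1.69 and 1.98 kb in WT control, 2.41 and 1.59 kb in ACSS2-/- control, 2.19 and 2.09 kb in WT UUO and 1.62 and 2.21 kb in ACSS2-/- UUO. Its H3K9ac was 3.33 kb in WT control, 3.27 kb in ACSS2-/- control, 1.62 and 1.88 kb in WT UUO and 2.35 and 2.59 kb in ACSS2-/- UUO. The marks stood apart in the control kidneys and overlapped after UUO. Leaving out a control library of H3K9ac loses its group, and the fit then added an effect of mark to one of genotype and operation. No member passed without the WT control library of H3K9ac, and without the ACSS2-/- one the only member that passed was Ccnd3, which was higher in H3K9cr. Without ACSS2-/- UUO replicate 1 of H3K9ac 5 passed, and without replicate 2, 6. The marks differ in antibody and in number of peaks, and the part of either was not tested.

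Over the 53 listed promoters of the 42 genes with a start, GC boxes (GGGCGG) were in 77.4%, against 35.7% of all 32851 promoters. CCAAT was in 52.8%, against 37.4%, the E2F motif TTTCCCGC or TTTGGCGC in 11.3%, against 1.56%, and TTTGAA in 15.1%, against 17.9%. TATAAA was in 7.55%, against 13.6%, and the p53 half-site in 13.2%, against 8.36%. All were searched on both strands, and an E2F match was present at Cdk2, Cdkn2a, Chek2, E2f2, E2f3 and Ezh2. The p53 half-site was present at Bax, Ccng1, Cdkn1a, Gadd45a, Mdm2, Sesn1 and Trp53. Between operations none of these 7 passed limma in 3 kb windows, where 11.8% of all genes did in H3K9cr and 14.1% in H3K9ac. Between genotypes none passed either, where at most 0.0616% of all genes did. With 7 genes, a share of none cannot be told from these shares. The window of Cdkn1a missed most of its peak, and with a 1 kb window Bax passed in H3K9cr between operations. These are matches of letters and not measured binding.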

How the data were processed

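The 14 deposited lists give peak positions (chromosome, start and end in bp) and no score, signal or read count. The authors aligned paired-end reads with Bowtie2, removed duplicates and poorly mapped reads, called peaks in each library with MACS2 and annotated them with ChIPseeker, on mm10 in the submitters' processing notes. Versions are not given in the sources used here.

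The 48 genes and all other lists were chosen with earlier results of these data known. Bases under peaks were counted within 3 kb of either end of 49943 RefSeq genes of GRCm38.p6, the assembly that mm10 names. Genes with a covered base in at least 2 libraries entered limma 3.58.1 (R 4.3.3, empirical Bayes with a trend, one mean per group) with Benjamini-Hochberg adjustment. The fit was tested on simulated data, drawn from normal distributions with means raised well above 0. That test does not show how the fit behaves for genes with libraries at 0. A covered length has a ceiling at the window and depends on how many peaks were called. Values per library are given for genes past an adjusted p of 0.05, Trp53, Cdkn1a and Cdkn2a, genes with peaks in all libraries of 1 operation and at most 1 of the other, and the genes of largest and smallest mean H3K9cr. Alternatives changed windows, scale, filter, scaling, pairing and libraries.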

Additional observations from a re-analysis of the deposited data

How the results depend on the processing

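Counts are of the 48 genes past an adjusted p of 0.05 in limma. For H3K9cr, UUO against control, the count was 2. With a 1 kb window 3 passed, Bax, Cdk2 and Igfbp5, and Mki67 was not among them. At gene starts only, 3 passed, Atr, Igfbp5 and Mki67. The count became 6 with only the longest 15988 peaks of each library, Cdk1 and Sesn2 among them, and 6 after quantile normalization. It became 4 with Y-linked peaks as a covariate, Cdk1 and Sesn2 again among them, 1 on the log2 scale and 1 with no filter on low cover. With every listed start of a gene, an alternative chosen after seeing the data, it was 4, and leaving out each library gave 2 to 3. Scoring the number of peaks, where the genes called had no spread within groups and the test is void, gave 3 in place of 0 for H3K9cr between the genotypes and 3 in place of 0 for the difference of the UUO effect, and leaving out each library gave 0 for both and for the genotypes within UUO.

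For H3K9ac, UUO against control, the 3 became 0 after quantile normalization, 1 on the log2 scale, 6 with the number of peaks and 5 with no filter. A filter that asked for cover in more of the libraries gave 7, and the Y-linked covariate gave 1. With a 1 kb window 2 passed, Ccnd1 and Sesn2, and Hmga2 and Igfbp3 were not among them. Leaving out each library gave 0 to 9. For the genotypes within UUO, the number of peaks gave 3 in place of 0 and leaving out each library gave 0 to 1. For H3K9cr against H3K9ac, the 3 became 5 at gene starts only, 7 after quantile normalization, 0 with the number of peaks and 6 with every listed start. Leaving out each library gave 0 to 6. With a 1 kb window the count stayed at 3, but these were Bmi1, Cdk1 and Cdk2, and none of Trp53, Cdkn2c and Atm passed. The sign of 3 genes turned in this comparison. With the number of peaks, Atm and Cdkn2c both differed by 0.125 peaks, and with a 1 kb window Trp53 differed by 0.0516 kb. The genes higher in every UUO library in H3K9cr fell from 2 to 1 with a 1 kb window and to 1 with the longest peaks. Those higher in every ACSS2-/- library went from 0 to 1 with a 1 kb window, and those lower from 0 to 1 with that window and to 1 with the longest peaks. The cause of these changes was not tested.

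Replicate numbers are shared between groups. Within a mark, the difference between the replicates of a group was taken for each gene and correlated between groups. These correlations were -0.0978 to 0.155 in H3K9cr and 0.141 between the UUO groups in H3K9ac. Whether same-numbered libraries of a mark share more than a number was not tested. Between the marks the study's text gives shared samples, but not which libraries share one. In ACSS2-/- UUO, replicate 1 had 0 Y-chromosome peaks in H3K9ac and 14 in H3K9cr, and replicate 2 had 13 and 0. Libraries of that group with the same number in their peak names had 0 and 0, and 13 and 14. Which pairing is right was not tested. The 6 and 3 genes called in H3K9ac with the number of peaks likewise had no spread within groups. With a replicate block, 0 genes passed for H3K9ac, UUO against control, and 0 for H3K9cr against H3K9ac. The latter was also 0 when the block used the numbers in the peak names, a pairing chosen after seeing the data. Read depth is unknown, and a missing peak does not show that a mark was absent.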
